A study of Mus musculus with 48 samples.

Results

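*Saa3*, *Saa1*, *Saa2*, *Hp* and *Slpi* are 5 of the 34586 genes counted by Seq-Well single-cell RNA sequencing (scRNA-seq) in 5 organs (spleen, skin, muscle, lung and joint) of healthy mice and of mice with collagen-induced arthritis (CIA). They were chosen by name, for a rise in CIA that had been seen in joint fibroblasts and lung macrophages, so their values in these cell types are given below as a description without a test. All 10 mice were male DBA1/J mice of 8 to 12 weeks of age. The 6 CIA mice had received bovine collagen II in complete Freund's adjuvant at the tail base and a booster in incomplete Freund's adjuvant on day 20, and the 4 healthy mice had received PBS and had an arthritis score of 0. CIA mice S1, S2 and S3 had an arthritis score of 8 (severe), and CIA mice S5, S6 and S8 had scores between 2 and 5 (mild). The sample names also carry a prefix that is taken here as the name of an experiment. The severe mice and healthy mouse H3 belonged to the experiment 2CIA, and the mild mice and healthy mice H4, H6 and H7 belonged to the experiment CIA. Severity and experiment therefore cannot be told apart among the CIA mice. Joint samples came from 3 healthy mice (H3, H4 and H7) and 5 CIA mice (all but S2), and the samples of each other organ came from all 10 mice. The organs had been frozen and were thawed before dissociation, with enzymes that differed between organs, and red blood cells were lysed in the spleen and in some muscle samples.

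The 5 genes encode proteins of the acute phase response, the change in secreted proteins that follows infection or injury and that cytokines such as interleukin-6, interleukin-1 and tumour necrosis factor induce. *Saa1* and *Saa2* encode serum amyloid A proteins that the liver releases into plasma, whereas *Saa3* is the serum amyloid A gene of the mouse that is mainly induced outside the liver, in macrophages, fibroblasts, adipocytes and epithelia. *Hp* encodes haptoglobin, which binds free haemoglobin and is also stored in granules of maturing granulocytes. *Slpi* encodes secretory leukocyte protease inhibitor, a small protein with whey acidic protein (WAP) domains that inhibits neutrophil elastase and cathepsin G.

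On the mouse genome GRCm38, the protein-coding genes *Saa3* (46711998 to 46715700, minus strand), *Saa1* (46740497 to 46742980, minus strand) and *Saa2* (46751790 to 46754313, plus strand) neighbour each other on chromosome 7. *Hp* lies on chromosome 8 (109575128 to 109579172, minus strand) and *Slpi* on chromosome 2 (164354070 to 164389095, minus strand). The 250 bases before the transcription start are shown for the pair of genes that had the highest counts in CIA joint fibroblasts beside *Hp*, *Saa3* and *Slpi*, and for *Saa1*, whose counts stayed low there. The sequences are from RefSeq (GRCm38.p6), written 5′ to 3′ on the strand of the gene, and capitals mark the match to the C/EBP motif TTGCNNAA, searched on both strands.
Saa3, chr7:46715677-46715926, minus strand: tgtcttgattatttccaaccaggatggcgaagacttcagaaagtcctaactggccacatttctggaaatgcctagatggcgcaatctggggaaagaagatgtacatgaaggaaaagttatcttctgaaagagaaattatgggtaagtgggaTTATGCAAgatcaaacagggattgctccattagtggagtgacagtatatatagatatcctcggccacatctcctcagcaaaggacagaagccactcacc
Slpi, chr2:164356508-164356757, minus strand: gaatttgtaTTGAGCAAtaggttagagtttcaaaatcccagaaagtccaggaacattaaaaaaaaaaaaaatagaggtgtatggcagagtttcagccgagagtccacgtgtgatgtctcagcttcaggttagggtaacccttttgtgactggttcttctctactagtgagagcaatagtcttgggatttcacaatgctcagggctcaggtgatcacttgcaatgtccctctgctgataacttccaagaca
Saa1, chr7:46742981-46743230, minus strand: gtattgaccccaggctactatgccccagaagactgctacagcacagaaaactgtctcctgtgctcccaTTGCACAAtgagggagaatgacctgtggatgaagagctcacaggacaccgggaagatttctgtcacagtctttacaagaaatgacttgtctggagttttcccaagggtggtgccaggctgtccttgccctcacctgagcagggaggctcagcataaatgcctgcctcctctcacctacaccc
The match began 99 bases before the start in *Saa3*, 182 in *Saa1* and 241 in *Slpi*. The RefSeq start of *Slpi* lies within its gene span given above, not at the upstream end of that span. The window of *Saa2* also held 1 match, and 4 of the 5 genes had a window in the RefSeq table. A match occurred in 9.56% of 32851 windows of the same length. The STAT motif TTCNNNGAA and the NF-kB motif had no match in these 4 windows and occurred in 7.02% and 7.25% of all windows. The window of *Saa1* was 94.82% identical to that of *Saa2* and 50.19% identical to that of *Saa3*. The transcripts of *Saa1* and *Saa2* were 93.92% identical and shared 74 of 560 stretches of 50 bases, so reads could have been split between them, whereas those of *Saa3* and *Saa1* were 64.64% identical and shared 9 of 506.

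Each transcript was counted once by its unique molecular identifier (UMI), and levels are given as UMIs per 1000000 UMIs of the cells summed (CPM). Such sequencing reads the 3′ end of transcripts, so CPM were used without a correction for length. The deposited labels gave 12096 of the 13240 cells a cell type, with a median of 675 UMIs from 409 genes per cell. The annotated cells of a sample summed to between 17748 UMIs, in lung, and 1645734 UMIs, in muscle. Libraries shared 59 cell barcodes, which 135 cells carried. Markers were present under labels that the comparisons use. UMIs were found of 8 of 8 fibroblast markers in joint fibroblasts and of 10 of 10 macrophage markers in lung macrophages. Spleen monocytes had UMIs of 5 of 5 monocyte markers. The study had used these markers to check its labels, so their presence is not a separate check of them. Spleen monocytes, however, had less RNA of monocyte markers (1127 CPM) than of granulocyte markers (9408 CPM) or of macrophage markers (9846 CPM). Spleen T cells had UMIs of 3 of 4 T cell markers, at 86.3 CPM against 76.9 CPM in spleen monocytes, beside 2230 CPM of macrophage markers. Joint T cells had 116 CPM of T cell markers, against 24.0 CPM in joint macrophages, beside 3510 CPM of macrophage markers. T cells of these organs are therefore an uncertain reference for cells that lack the genes. RNA of granulocyte markers (*Camp*, *Ngp*, *S100a8* and *S100a9*) was found in cells of other labels as well, and their summed level is given beside the results that it moved with.

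Among annotated cells, *Hp* had 3177 UMIs in 1572 cells (12.996%), *Saa3* 2629 UMIs in 457 cells (3.78%) and *Slpi* 2327 UMIs in 1191 cells (9.85%). The counts of *Saa1*, with 74 UMIs in 47 cells, and of *Saa2*, with 35 UMIs in 24 cells, were far lower. *Saa3* was the most concentrated, with up to 171 UMIs in a cell against 24 for *Hp* and 89 for *Slpi*. Fibroblasts of CIA skin held 1035 of the *Saa3* UMIs (39.4%) and fibroblasts of CIA joint held 745 (28.3%). For *Hp*, granulocytes of CIA joint held 915 UMIs (28.8%) and granulocytes of CIA spleen 491 (15.5%). *Slpi* was spread most evenly, with 240 UMIs (10.3%) in fibroblasts and 223 (9.58%) in granulocytes of CIA joint and 210 (9.02%) in macrophages of CIA lung.

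In joint fibroblasts, *Saa3* was found in CIA mice S1 (1375 CPM, 295 UMIs), S3 (4138 CPM, 284 UMIs) and S5 (589 CPM, 166 UMIs). No *Saa3* UMI was found in the fibroblasts of healthy mice H3, H4 and H7, so the groups did not overlap. The mean was 2034 ± 1864 CPM in CIA mice (SD, n = 3). *Slpi*, the protease inhibitor, likewise had 186, 1035 and 433 CPM in S1, S3 and S5 (551 ± 436 CPM, SD, n = 3) and 0 UMIs in the 3 healthy mice. *Hp* was detected in both groups, with 489, 758 and 308 CPM in S1, S3 and S5 and 15.8, 15.5 and 77.6 CPM in H3, H4 and H7. Its means were 518 ± 226 and 36.3 ± 35.8 CPM (SD, n = 3 each), 14.3-fold apart, with 244 UMIs in CIA and only 5 in healthy mice. Mouse S3 was highest for all of *Saa3*, *Slpi* and *Hp*. *Saa1* did not follow them, with 38.1 ± 22.3 CPM in CIA (17 UMIs) and 29.7 ± 31.8 CPM in healthy mice (5 UMIs), and *Saa2* had 4 and 1 UMIs. In this comparison, 1.68% of 1014 genes past the filter on low counts were called by edgeR at an adjusted p below 0.05, and nothing is read from that share for the genes chosen on it. S6 and S8 had too few fibroblasts for a value, and in them 18 *Hp*, 7 *Slpi* and 0 *Saa3* UMIs were found in 9 cells of S6 and none of the 3 genes in 4 cells of S8.

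**Figure D1:**
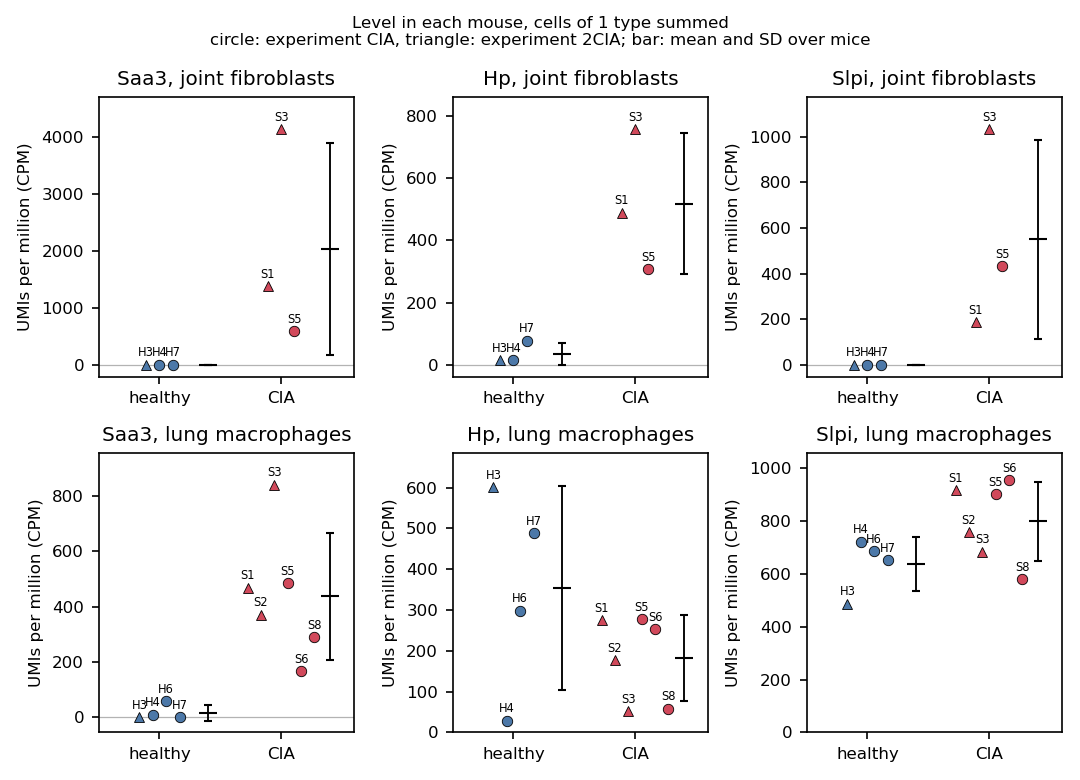
Level of *Saa3*, *Hp* and *Slpi* (vertical axis, CPM) in joint fibroblasts and lung macrophages of each healthy and CIA mouse with at least 10 cells, with the mean and SD over mice as a bar and the experiment as the shape of the point. In joint fibroblasts, all 3 CIA mice lie above the healthy mice for the 3 genes, and in lung macrophages the groups are apart for *Saa3* only.

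Within joint fibroblasts, *Saa3* was carried by a minority of cells. A UMI of *Saa3* was found in 26 of 182 cells of S1 (14.3%), 27 of 56 cells of S3 (48.2%) and 16 of 160 cells of S5 (10.0%), and after thinning of each cell to 400 UMIs in 9.89%, 33.9% and 5.00%. The 5 cells with the most *Saa3* UMIs held 77.97%, 76.8% and 91.0% of all in S1, S3 and S5, and single cells held up to 86, 75 and 80 UMIs. *Hp* was found more often in fibroblasts with *Saa3* (53.8%, 48.1% and 50.0% in S1, S3 and S5) than in those without (7.69%, 17.2% and 18.8%). For *Slpi* the shares were 34.6%, 40.7% and 31.3% against 11.5%, 28.9% and 19.2%. Both shares were higher in the *Saa3* cells of each of the 3 mice, in which these cells also had more UMIs (medians of 1099, 1195 and 1789 against 974, 869 and 1459). Fibroblast markers made up 5.58%, 1.85% and 4.25% of the UMIs of the *Saa3* cells and 5.67%, 2.02% and 5.67% in the other fibroblasts.

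The genes were also found in other cells of the joint. Over all CIA mice, *Saa3* was found in 16.8% of 411 joint fibroblasts (10.9% after thinning, median depth 1145 UMIs). It was also found in 8.33% of 132 joint T cells (1.52% after thinning, median depth 858 UMIs), which should lack it where the label holds. For *Hp* the thinned shares were 11.2% in fibroblasts and 7.58% in T cells, and for *Slpi* they were 9.73% and 8.33% (18.2% in both before thinning). In healthy joints, 0 of 192 fibroblasts had *Saa3*, which allows a share of up to 1.56%. No *Saa3* T cell held more than 1 UMI. The summed level of the granulocyte markers, with UMIs of 4 of 4 markers in each group, was 13231, 29491 and 20638 CPM in fibroblasts of S1, S3 and S5 and between 1393 and 5900 CPM in those of the healthy mice, and the part of granulocyte RNA in the *Hp* and *Slpi* values was not tested. The ratio of the genes differed between cell types of 1 library. *Saa3* made up 67.0% and 44.3% of the UMIs of *Saa3*, *Hp* and *Slpi* together in fibroblasts of S1 and S5, but 11.0% and 12.6% in their granulocytes, where *Hp* made up 72.9% and 70.7%.

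**Figure D2:**
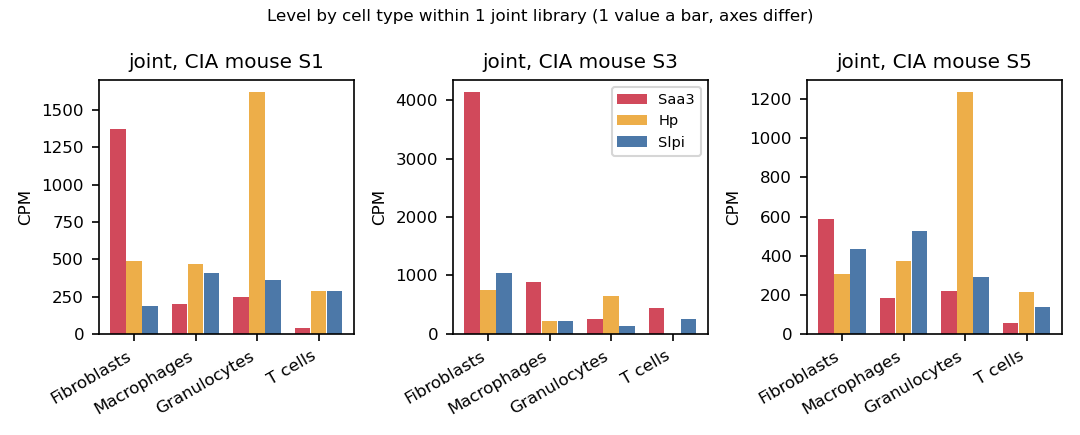
Level of *Saa3*, *Hp* and *Slpi* (vertical axis, CPM, with a separate scale for each mouse) in 4 cell types of the joint in CIA mice S1, S3 and S5, 1 value for each bar. *Saa3* is the highest of the 3 in the fibroblasts of each mouse and *Hp* in the granulocytes of each mouse.

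Joint macrophages were not among the cells that the genes were chosen on, but they came from the same libraries as the joint fibroblasts. In joint macrophages too, each value of *Saa3*, *Hp* and *Slpi* in CIA mice lay above each value in healthy mice. *Saa3* had 202, 883, 182 and 188 CPM in S1, S3, S5 and S8 and 48.4, 0 and 0 CPM in H3, H4 and H7. *Hp* had 469, 221, 372 and 188 CPM against 48.4, 0 and 56.2 CPM, and *Slpi* had 405, 221, 524 and 502 CPM against 96.8, 84.0 and 0 CPM. The groups did not overlap for any of the 3, but healthy mice had 2 to 5 UMIs per gene, and no difference passed the test (adjusted p = 0.122 for *Saa3*, 0.122 for *Hp* and 0.141 for *Slpi*, edgeR, adjusted by Benjamini-Hochberg over every gene with a count, n = 4 and 3). By the same test 0.0714% of 15400 genes were called. The share of all genes whose groups do not overlap was not counted, here or in the other comparisons. A lack of overlap is therefore only a description of the values. Pooled over mice, the CIA level was 8.48 times the healthy one for *Saa3* (exact 95% interval 2.25 to 71.6, counting error only) and 9.12 times for *Hp* (3.03 to 45.0). Granulocyte markers reached 33192 to 59263 CPM in macrophages of CIA mice and 924 to 8229 CPM in those of healthy mice, and their part in these values was not tested. Fibroblast markers were at 3859 CPM over all joint macrophages, against 47527 CPM in joint fibroblasts. The part of fibroblast RNA in the values of macrophages and other joint cells was not tested either. When all joint cells but the fibroblasts were summed, CIA and healthy mice differed by log2 values of 2.06 for *Saa3*, 1.68 for *Hp* and 1.76 for *Slpi* without passing the edgeR test (adjusted p = 0.598, 0.3002 and 0.3002), where 0% of 1248 genes were called. In such sums of an organ, fewer cells of a type and less RNA per cell cannot be told apart.

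In lung macrophages, *Saa3* was higher in each of the 6 CIA mice than in each healthy mouse. It had 469, 371 and 841 CPM in the severe mice S1, S2 and S3, 485, 168 and 290.0 CPM in the mild mice S5, S6 and S8, and 0, 9.63, 59.7 and 0 CPM in H3, H4, H6 and H7. The means were 438 ± 230 CPM (SD, n = 6, 105 UMIs) and 17.3 ± 28.6 CPM (SD, n = 4, 3 UMIs). *Saa3* was found in 10.4% of 393 macrophages of CIA mice (8.40% after thinning, median depth 568 UMIs) and in 0.704% of 284 of healthy mice (0.352% after thinning, median depth 624 UMIs), against 1 of 35 lung T cells of CIA mice. The mean level of the other members did not separate the groups. *Hp* had 182 ± 105 CPM (SD, n = 6) in CIA and 354 ± 251 CPM (SD, n = 4) in healthy mice, and *Slpi* had 799 ± 149 and 637 ± 104 CPM, with overlapping groups for both. The share of macrophages with an *Hp* UMI went the other way from its CPM, with 10.9% in CIA (6.11% after thinning) and 3.87% in healthy mice (2.11% after thinning), so no order is read from it. *Slpi* was found in 25.7% and 28.9% of them (20.4% and 22.9% after thinning). *Saa1* and *Saa2* had 1 UMI each in CIA and none in healthy mice. The lung macrophages of CIA mice had 580.0 to 14701 CPM of granulocyte markers and those of healthy mice 356 to 545 CPM. Their part in the *Saa3* values was not tested. The 5 *Saa3* UMIs of S8 all lay in 1 of its 29 macrophages. Without the macrophages, the lung sums held 29 *Saa3* UMIs in CIA and 0 in healthy mice, and 28 of these were in S1, all in 1 of its 2 granulocytes. This difference did not pass the edgeR test (adjusted p = 0.129 over every gene with a count, of which 0.00883% were called, 0.413 without S1 and 0.0384 without S8).

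Spleen monocytes had more *Hp*, *Saa3* and *Slpi* in CIA mice. *Hp* had 713, 844 and 449 CPM in the severe mice S1, S2 and S3 and 174, 842 and 175 CPM in the mild mice S5, S6 and S8, and 0, 53.0, 38.7 and 40.8 CPM in H3, H4, H6 and H7. Each CIA value lay above each healthy value, and the means of 533 ± 313 CPM (SD, n = 6, 230 UMIs) and 33.1 ± 23.0 CPM (SD, n = 4, 7 UMIs) were 16.1-fold apart. *Hp* passed the filter on low counts and rose by a log2 value of 3.45 (standard error 0.73, adjusted p = 0.0204, edgeR). In this comparison 6.36% of the 456 genes past the filter were called. *Saa3* had 119, 114 and 193 CPM in S1, S2 and S3, 0 in S5 and S6 and 233 CPM in S8, and 0 UMIs in 172 monocytes of the 4 healthy mice. Set against an upper limit of 3 UMIs for the healthy group, it was at least 5.68-fold higher in CIA (37 UMIs, higher in 4 of 6 mice, adjusted p = 0.0190 in the edgeR fit of every gene with a count). *Slpi* had 515, 262, 257, 174, 70.1 and 0 CPM in S1, S2, S3, S5, S6 and S8 and 0, 42.4, 0 and 40.8 CPM in the healthy mice. Its means were 10.2-fold apart, with 87 UMIs in CIA and only 5 in healthy mice (log2 difference 2.79, standard error 0.74, adjusted p = 0.0359 in the same edgeR fit). That fit called 0.485% of 16691 genes.

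The calls in spleen monocytes did not hold in every fit without 1 mouse. Without 1 mouse, the adjusted p of *Hp* from edgeR lay between 1.492e-05 and 0.0689 and missed the threshold without any of the 4 healthy mice (0.0501 without H3, 0.0683 without H4, 0.0689 without H6 and 0.0517 without H7). That of *Saa3* lay between 0.00782 and 0.178 and missed it without H3 (0.0807), H4 (0.178), H6 (0.0907), H7 (0.0907), S2 (0.0692) or S8 (0.0862). That of *Slpi* lay between 0.0138 and 0.396 and missed it without H3 (0.28), H6 (0.308), H7 (0.136), S1 (0.396) or S2 (0.152). The log2 difference kept its sign each time for each of the 3 genes. The filter was applied anew in each of these fits, so a change in adjusted p can also come from a change of fit. DESeq2 gave *Hp* an adjusted p of 0.000246. With experiment as a term in the edgeR fit, *Hp* kept its call (adjusted p = 0.0426) and *Saa3* (0.142) and *Slpi* (0.814) lost it, and within the experiment CIA alone the log2 differences were 2.56, 4.55 and 1.07 and none passed (0.144, 0.663 and 0.663). *Hp* was found in 28.1% of 356 monocytes of CIA mice (19.4% after thinning, median depth 813 UMIs) and in 3.49% of 172 of healthy mice (1.16% after thinning, median depth 824 UMIs). In spleen T cells of CIA mice it was found in 13.5% of 185 cells (4.86% after thinning, median depth 803 UMIs), with 201 to 345 CPM in the T cells of S1, S2 and S3. *Slpi* was found in 14.0% of the monocytes (6.74% after thinning) and 12.4% of the T cells (3.24% after thinning) of CIA mice, and its mean level there was 213 ± 181 CPM in monocytes (SD, n = 6) and 205 ± 166 CPM in T cells (SD, n = 4). Granulocyte markers reached 15116, 18566 and 24005 CPM in the monocytes of the severe mice, 2679 to 3416 CPM in those of the mild mice and 722 to 1021 CPM in those of the healthy mice. In S6, 15 of the 24 *Hp* UMIs of the monocytes lay in 1 of 21 cells. The part of granulocyte RNA in these results was not tested.

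Over all cells of the spleen, *Saa3* had 42.0, 71.9 and 177 CPM in S1, S2 and S3, 46.1, 7.47 and 44.7 CPM in S5, S6 and S8, and 0, 2.43, 0 and 0 CPM in the healthy mice. The groups did not overlap, and the pooled level was 46.6-fold higher in CIA (120 UMIs against 1, exact 95% interval 8.20 to 1855, counting error only). *Saa3* was called by edgeR (adjusted p = 5.478e-07 over every gene with a count, of which 0.747% were called) and remained called without each of the 10 mice in turn (3.598e-08 to 5.022e-05). *Hp* did not overlap either, with 454, 762 and 428 CPM in the severe, 142, 306 and 124 CPM in the mild and 71.8, 55.9, 21.0 and 13.7 CPM in the healthy mice. Its log2 difference of 3.18 (standard error 0.68) missed the threshold among the 2927 genes past the filter, of which 0.137% were called (adjusted p = 0.0916, edgeR), and passed it in the fit of every gene with a count (2.46e-11) and in DESeq2 (0.000361). It also passed without S5 (0.0418) or S8 (0.0345). *Slpi* overlapped between the groups and had a log2 difference of 2.35 (standard error 0.53, adjusted p = 0.00204, edgeR, every gene with a count), with 186, 125 and 102 CPM in the severe, 56.8, 14.9 and 9.92 CPM in the mild and 18.0, 19.5, 0 and 34.2 CPM in the healthy mice. Its adjusted p was above the threshold without H3 (0.678), H4 (0.632), H6 (0.761), H7 (0.796), S1 (0.103) or S6 (0.412). The log2 differences in these fits were 1.94 to 2.53. The filter was applied anew in each, so the change in adjusted p can come from a change of fit. With experiment as a term in the edgeR fit, *Saa3* kept its call (adjusted p = 9.105e-05), and *Hp* (0.0508) and *Slpi* (0.766) did not pass. Within the experiment CIA alone, none of the 3 passed (0.1103 for *Saa3*, 0.597 for *Hp* and 0.812 for *Slpi*). Granulocyte markers summed to between 3389 and 22237 CPM in the spleen of healthy mice, 19666 and 27429 CPM in that of mild mice and 75466 and 130943 CPM in that of severe mice, and cells labelled granulocyte or neutrophil made up 0 to 2.42% of the cells of healthy mice. Their part in these differences was not tested.

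**Figure D3:**
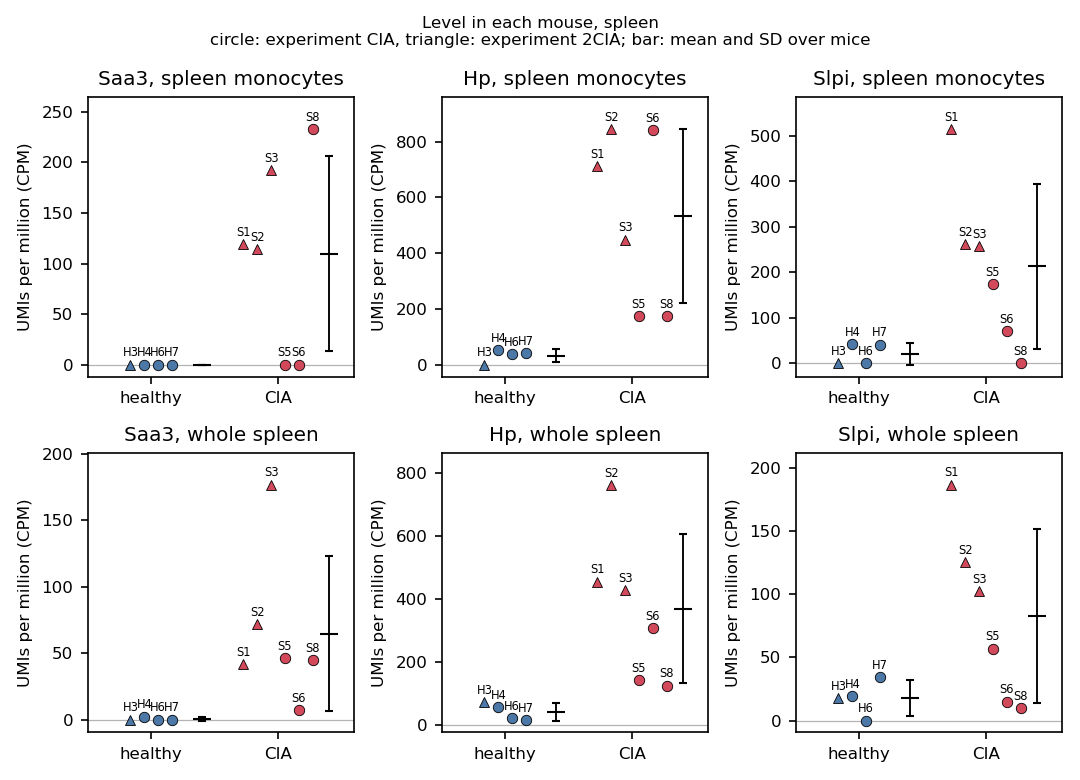
Level of *Saa3*, *Hp* and *Slpi* (vertical axis, CPM) in spleen monocytes and in all annotated spleen cells of each mouse, with the mean and SD over mice as a bar. *Hp* is higher in each CIA mouse than in each healthy mouse in both rows, and the severe mice S1, S2 and S3 (triangles) lie above the mild mice for *Slpi*.

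The severe mice, all of experiment 2CIA, and the mild mice, all of experiment CIA, differed in *Hp* and *Slpi* of the spleen. Severity and experiment cannot be told apart in this comparison. The log2 difference was 1.70 for *Hp* (standard error 0.42, adjusted p = 0.0233, edgeR) and 2.34 for *Slpi* (standard error 0.52, adjusted p = 0.0173, edgeR), and each severe mouse lay above each mild mouse for both. In this comparison 10.2% of the 3664 genes past the filter were called. Cells labelled granulocyte or neutrophil made up 11.0%, 16.5% and 14.3% of the cells of S1, S2 and S3 and 1.95%, 3.36% and 2.39% of those of S5, S6 and S8, and the part of this share in the difference was not tested. The *Hp* call was lost without S2 (0.0755), S5 (0.102), S6 (0.0531) or S8 (0.107) and that of *Slpi* without S6 (0.0772) or S8 (0.0709). *Saa3* of the spleen had a log2 difference of 1.36 without passing the test (adjusted p = 0.184, edgeR), and in joint its difference of 3.27 did not pass either (adjusted p = 0.998, edgeR, n = 2 and 3, with 0.0484% of genes called). In lung, *Saa3* was 556 ± 185 CPM in severe and 267 ± 124 CPM in mild mice (SD, n = 3 each), which did not pass the test (adjusted p = 0.378, edgeR, with 0.329% of genes called).

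In skin, 1 library decided the level of *Saa3*. The fibroblasts of CIA mouse S2 held 1015 *Saa3* UMIs in 64 cells (13528 CPM), found in 29 of them with up to 171 UMIs in a cell. S1 followed with 19 UMIs, all in 1 cell (469 CPM), S3 had 1 UMI (52.5 CPM), and S5 and S8 had none. Of the healthy mice, H7 had 1 UMI (26.4 CPM) and the other three had none. *Saa3* was called in the edgeR fit of every gene with a count (log2 difference 8.43, adjusted p = 2.571e-31, higher in 3 of 5 CIA mice), which called 0.0766% of 15661 genes. The pooled level was 702-fold higher (1035 UMIs against 1, exact 95% interval 126 to 27750, counting error only). Without S2, the log2 difference was 3.78 with an adjusted p of 0.606. *Slpi* had 35 of its 36 UMIs in S2 (466 CPM) and 0 in healthy mice, at least 8.14-fold higher (adjusted p = 0.00945, edgeR), and without S2 its adjusted p was 0.613, while H4 (0.0538), H6 (0.121) and H7 (0.128) also ended the call when left out. With experiment as a term in the edgeR fit, *Saa3* kept its call (adjusted p = 8.793e-06) and *Slpi* lost it (0.927), and within the experiment CIA alone *Saa3* differed by a log2 value of -1.76 (0.823). S2 was the highest CIA mouse in the Basal III cells of the epidermis too, with 521 CPM of *Saa3* and 661 CPM of *Slpi* against at most 54.1 and 107 CPM in the other CIA mice. Granulocyte markers, of which 3 of 4 had a UMI in CIA and 2 of 4 in healthy mice, were at 493 CPM in the skin fibroblasts of S2 and at no more than 26.4 CPM in those of the healthy mice.

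Among cell types with at least 3 healthy mice, Basal III cells had the highest mean level of *Saa3*, in a range that overlapped with the next. They had 413 CPM in H3, 748 CPM in H7, 30.4 CPM in H6 and 0 in H4, and the 5 CIA mice other than S2 had 41.5, 9.75, 0, 54.1 and 0 CPM (S1, S3, S5, S6 and S8). CIA and healthy mice overlapped and differed by a log2 value of -1.15 (adjusted p = 0.695, edgeR, every gene with a count, of which 0.0818% were called). Without S2 the difference was -4.29 (adjusted p = 5.007e-10, lower in CIA), and without H7 it was 0.0099 (adjusted p = 0.991), so its direction rested on single mice. With experiment as a term in the edgeR fit the difference was -2.40 (adjusted p = 0.00364), and within the experiment CIA alone, which lacks S2, it was -5.37 (1.324e-05). *Hp* had 0 UMIs in Basal III cells, in 0 of 514 cells of CIA mice and 0 of 197 of healthy mice, which allow shares of up to 0.584% and 1.52%. *Slpi* averaged 148.7 ± 112.7 CPM in the healthy (SD, n = 4) and 144.4 ± 255.8 CPM in CIA mice (SD, n = 6).

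**Figure D4:**
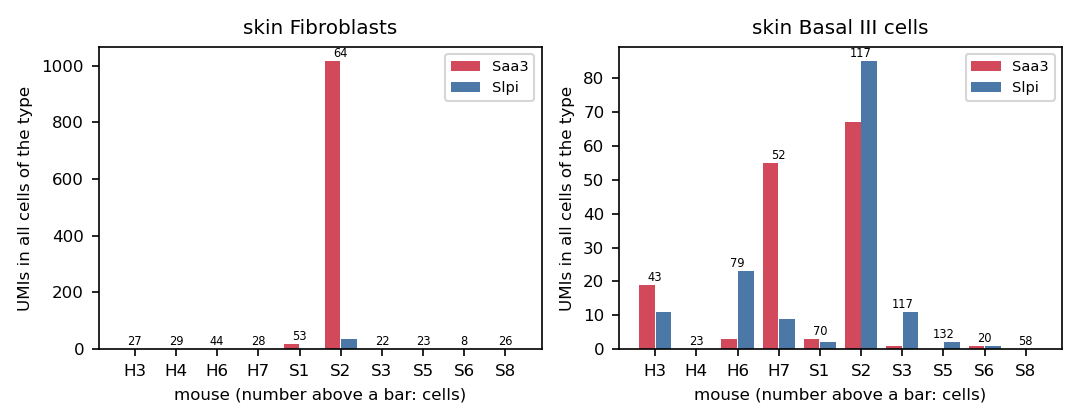
Number of *Saa3* and *Slpi* UMIs (vertical axis) in all fibroblasts and all Basal III cells of the skin of each mouse, with the number of cells above each bar. In fibroblasts, S2 holds 1015 *Saa3* UMIs and no other mouse more than 19, and in Basal III cells S2 holds 67 and the healthy mouse H7 55.

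Muscle showed no common direction. Over all muscle cells *Hp* was lower in CIA (15.9 to 155 CPM, median 121 CPM) than in healthy mice (161 to 302 CPM), without overlap, and the log2 difference of -1.45 did not pass the edgeR test (adjusted p = 0.9997, with 0.055% of genes called). Granulocytes and neutrophils made up 0.575% to 4.47% of the muscle cells of CIA mice and 7.14% to 28.0% of those of healthy mice, and their part in this value was not tested. *Slpi* was high in single libraries. Muscle macrophages of S6 had 1631 CPM (181 UMIs) against 78.8 to 239 CPM in S2, S3 and S5 and 121 to 382 CPM in the healthy mice. Muscle T cells of S3 had 1277 CPM (121 UMIs), against 206 and 19.8 CPM in S6 and S2 and 53.2, 98.0 and 56.1 CPM in H4, H6 and H7. Neither cell type passed the main test (adjusted p = 0.669 for macrophages and 0.675 for T cells, edgeR). The T cells passed in the fit of every gene with a count (0.00372). Without S6 their adjusted p was 0.00188. There the filter was applied anew, so this value can come from either fit. The share of genes called was 0.0685% for macrophages over every gene with a count, and for T cells 0.0511% past the filter and 0.147% over every gene with a count. The log2 difference of macrophages was 1.79 with all mice and -0.88 without S6. *Saa3* of muscle was 41.3 ± 34.9 CPM in CIA (SD, n = 6) and 31.8 ± 13.9 CPM in healthy mice (SD, n = 4).

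Of the 34 tests of a member in the 9 pairs of organ and cell type outside joint fibroblasts and lung macrophages, 5 were called, all of them described above for spleen monocytes and skin fibroblasts. Only 2 of the 34 tests concerned a gene past the filter, and of these the *Hp* test in spleen monocytes was called, whereas in those pairs 0.88% of the genes past the filter and 0.126% of all genes with a count were called. Of the 22 tests on organ sums 2 were called, against 0.0695% of the genes past the filter and 0.287% of all genes with a count. Of the 25 tests of severe against mild mice 4 were called, among them *Saa3* and *Slpi* of the skin (log2 differences of 8.70 and 4.17, where 0.227% of every gene with a count were called), against 3.01% and 0.649%. Without S2, *Saa3* of the skin kept its call in edgeR at a log2 difference of 4.39 (adjusted p = 0.0253) and *Slpi* lost it (0.837). Both calls were lost without S5 (0.659 for both), S6 (0.423 for both) or S8 (0.741 for *Saa3* and 0.761 for *Slpi*), and that of *Slpi* also without S1 (0.163). Without S5, S6 and S8 the log2 differences were 7.49, 10.9 and 7.91 for *Saa3* and 3.77, 4.82 and 3.29 for *Slpi*. The filter was applied anew in each fit, so these losses can come from a change of fit. The share of cells with a UMI was compared over mice by two-sided exact permutation tests after thinning, and 0 of 33 tests passed (lowest adjusted p = 0.597). The lowest unadjusted p was 0.0429, for *Hp* in spleen monocytes (17.5% in CIA and 1.11% in healthy mice, mean over mice). With 3 mice in each group such a test cannot go below 0.1.

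In healthy mice, lung macrophages and muscle granulocytes held the first places for both *Hp* and *Slpi* by mean level. The 49 *Hp* UMIs of these lung macrophages lay in 11 of 284 cells. The order of levels, among the 13 cell types of an organ for which 3 or more healthy mice had 10 cells, began for *Hp* with muscle granulocytes (846 ± 121 CPM, SD, n = 3), followed by lung macrophages (354 ± 251 CPM, SD, n = 4) without overlap and by muscle macrophages (112 ± 87.2 CPM, SD, n = 3), which overlapped with lung macrophages. For *Slpi* it began with lung macrophages (637 ± 104 CPM), which overlapped with muscle granulocytes (267 ± 198 CPM). *Saa3* began with Basal III cells of skin (298 ± 354 CPM), which overlapped with muscle granulocytes (90.2 ± 102.0 CPM). In CIA mice the highest means were in skin and joint fibroblasts for *Saa3* (2810 ± 5995 CPM, n = 5, and 2034 ± 1864 CPM), in granulocytes of spleen (1549 ± 316 CPM, n = 3) and joint (987 ± 540 CPM, n = 4) for *Hp*, and in lung macrophages and joint fibroblasts for *Slpi* (799 ± 149 and 551 ± 436 CPM). Neighbours in these CIA orders overlapped in range down to the lowest places. Over whole organs of healthy mice, *Hp* (adjusted p = 0.00335), *Saa1* (0.00622) and *Slpi* (0.0279) differed between the 5 organs by permutation of organ labels within mice (100000 permutations, adjusted over the 5 genes), and *Saa2* (0.0628) and *Saa3* (0.162) did not pass. With a pseudocount of 1 CPM in place of 10 CPM, *Slpi* no longer passed (0.119). None of the 5 passed without H3, H6 or H7, and 2 passed without H4. *Hp* ranged from 0 UMIs in healthy skin to 299 ± 207 CPM in lung, and *Slpi* from 17.9 ± 14.0 CPM in spleen to 549 ± 109 CPM in lung (SD, n = 4). *Saa1* was found in joint (15.8 ± 16.8 CPM, SD, n = 3) and skin (47.1 ± 45.4 CPM, SD, n = 4) of healthy mice and had 0 UMIs in their lung, muscle and spleen.

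**Figure D5:**
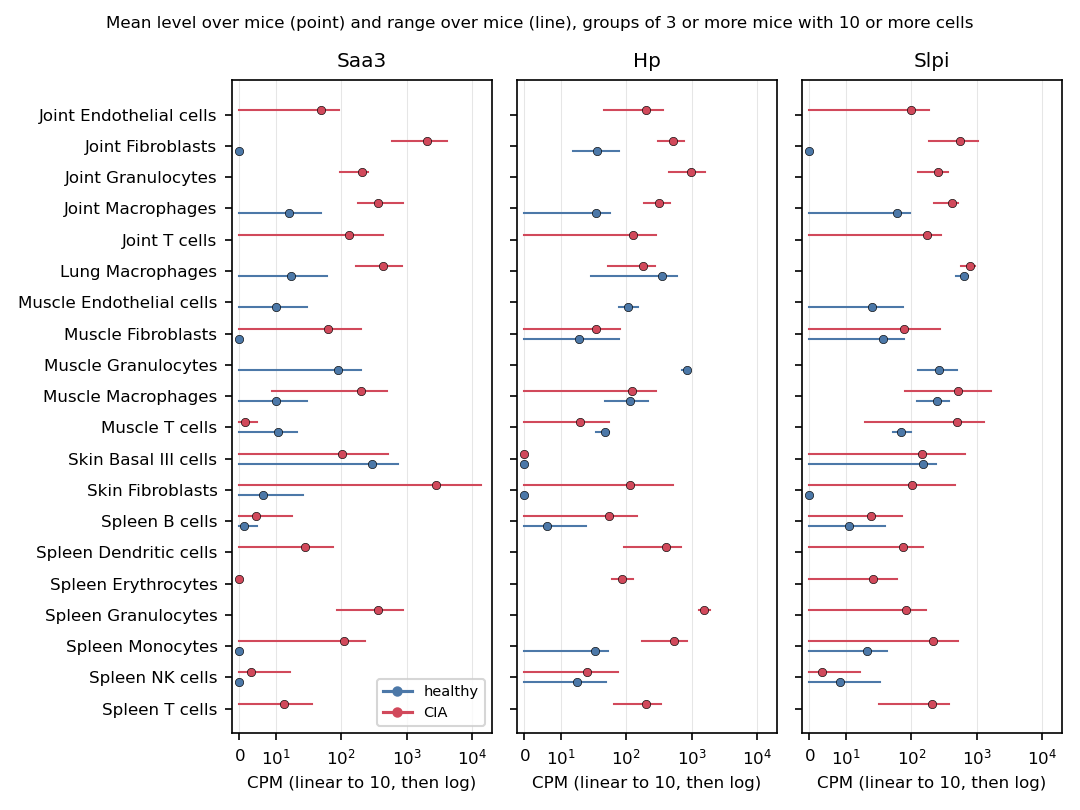
Mean level (point) and range over mice (line) of *Saa3*, *Hp* and *Slpi* in each cell type of an organ for which 3 or more mice had 10 or more cells, by disease group (horizontal axis, CPM, linear to 10 and logarithmic above). The highest means are those of *Saa3* in CIA fibroblasts of skin (2810 CPM) and joint (2034 CPM).

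Other genes of the acute phase response were taken from fixed lists. Of 23 other acute phase genes, 2 passed the filter in joint fibroblasts, and neither was called. These were *C3*, the central complement component (384 ± 124 CPM in healthy against 217 ± 135 CPM in diseased mice, SD, n = 3 each), and *Lbp*, which binds lipopolysaccharide (132 ± 70.8 and 144 ± 92.1 CPM). *Ptx3*, a pentraxin made by stromal cells, did not pass the filter and had 24.2 ± 7.70 CPM in healthy and 636 ± 904 CPM in CIA mice, with a range of 31.9 to 1676 CPM. Among 21 inducers and signalling genes, 8 were tested in joint fibroblasts and 0 called. *Il6*, the main inducer of the response in liver, had 75.3 ± 89.4 CPM in healthy and 453 ± 611 CPM in CIA mice (log2 difference 2.44, standard error 1.36, adjusted p = 0.403, edgeR), and *Nfkbia* and *Cebpb*, an inhibitor of NF-kB and a C/EBP factor, had 1837 ± 465 and 399 ± 195 CPM in healthy and 1753 ± 559 and 333 ± 79.1 CPM in CIA mice.

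Over the 11 pairs of organ and cell type, 43 tests of list genes past the filter gave 3 calls, and 0 when mouse H4 was left out of every fit. Of the 8258 genes past the filter in these pairs, 1.34% were called. *Wfdc17*, another gene with a WAP domain, rose in lung macrophages from 2512 ± 690 CPM (SD, n = 4) to 6341 ± 2544 CPM (SD, n = 6), a log2 value of 1.22 (standard error 0.28, adjusted p = 0.0112, edgeR), where 6.51% of 538 genes were called. In spleen monocytes it rose from 222 ± 133 to 1656 ± 1052 CPM (log2 value 2.57, standard error 0.51, adjusted p = 0.0159, edgeR), where 6.36% of 456 genes were called. *Nfkbia* fell in joint macrophages by 1.26 on the log2 scale (standard error 0.35, adjusted p = 0.04997, edgeR), from 2555 ± 51.7 CPM (SD, n = 3) to 1054 ± 605 CPM (SD, n = 4), and 10.3% of the 273 genes past the filter there were called. By list, calls were made for 2 of 8 tests of WAP genes, of which 7 tests and both calls were of *Wfdc17* alone, 1 of 31 of inducers and signalling genes, 0 of 3 of acute phase genes and 0 of 1 of receptors and targets of the products, and the 9 genes that fall in an acute phase response did not pass the filter in any pair. The lists' medians of the log2 difference in joint fibroblasts were -0.37 for acute phase genes and -0.20 for inducers, against 0.06 over all genes tested there.

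Among 11955 genes, the levels of *Saa3* over 160 sums of a cell type in a sample were most like those of *Timp1*, an inhibitor of metalloproteinases (Pearson's r = 0.529), *Ptgs2*, an inducible cyclooxygenase (0.511), and *Ccl2*, a monocyte chemokine (0.504). *Hp* was most like *Ifitm6* (0.782), *Wfdc21* (0.781) and *Mcemp1* (0.769), and *Slpi* was most like *Clec4d* (0.644), *Cxcl2* (0.617) and *Cd14* (0.611). The members were less alike among themselves, with r = 0.503 for *Saa3* and *Slpi*, 0.371 for *Saa3* and *Hp* and 0.489 for *Hp* and *Slpi*. These correlations are of log2(CPM + 50) and are a description, since sums of 1 sample share a library and sums differ in depth.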

How the data were processed

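The deposited table held raw UMI counts per gene and cell. The authors made them with Drop-seq tools and STAR on GRCm38 after keeping cells with few mitochondrial reads. A deposited table gave cell type labels from denoising, SingleR and clustering, which the authors had checked or named with marker genes. Counts were summed per mouse, organ and label, with at least 10 cells per mouse and at least 3 mice per group. Sums were tested with edgeR 4.0.16 (quasi-likelihood, TMM factors, filterByExpr, Benjamini-Hochberg adjustment over all genes) in R 4.3.3, and for members below the filter the fit was repeated on all genes with 1 or more counts. In each fit with a mouse left out the filter was applied anew. The adjusted p of a member is from genes past the filter where it passed, and otherwise from every gene with a count. A call could therefore be lost or gained by the change of fit. DESeq2 1.42.0 was an alternative. Permutation tests and the filtered edgeR fit were tested on simulated data. The simulated counts had the same dispersion for all genes. The fit of every gene with a count was not tested on them. Shares of cells were compared after thinning to 400 UMIs. The 5 members were named in every pair of organ and cell type, list genes where they passed the threshold or, if none did in joint fibroblasts or lung macrophages, as the 3 with the highest mean, and the 3 most similar genes per member. Members and lists were chosen with earlier results of these data known. Each mouse is 1 replicate, and p-values are meant to measure the spread between mice. How far they do so in the fit of every gene with a count was not tested. That fit gave 4 of the 5 calls in pairs and the 2 calls in organ sums. Its adjusted p was far below that past the filter for *Saa3* of the skin sum (1.285e-09 against 0.813, edgeR). For *Slpi* of the joint sum it was higher (0.452 against 0.3002, edgeR). UMIs are counted molecules, and intervals and limits for a count of 0 cover counting error only. Doublets were not called here, and 16 cells had over 6000 UMIs.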

Additional observations from a re-analysis of the deposited data

Results flagged for a closer look

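In 14 of 49 groups of 4 to 10 mice, 1 mouse lay far from the others by Dixon's ratio at its 95% critical value. That value assumes independent samples from a normal distribution, whereas these groups share mice and cells and can hold few UMIs. The number of groups is therefore not compared with a rate by chance. In skin, this was CIA mouse S2 for *Saa3* (13528 CPM in fibroblasts, next 469 CPM, 521 CPM in Basal III cells, next 54.1 CPM, and 4564 CPM over all annotated cells, next 181 CPM) and for *Slpi* (466 CPM in fibroblasts, next 52.5 CPM, 661 CPM in Basal III cells, next 107 CPM, and 563 CPM over all annotated cells, next 93.8 CPM). Mouse S3 stood apart for *Hp* in skin fibroblasts (525 CPM, next 53.3 CPM), for *Saa3* in joint macrophages (883 CPM, next 202 CPM) and over all joint cells (2542 CPM, next 585 CPM), and for *Slpi* over all joint cells (672 CPM, next 331 CPM) and all muscle cells (1122 CPM, next 289.8 CPM). Mouse S6 stood apart for *Slpi* in muscle macrophages (1631 CPM, next 239 CPM) and muscle fibroblasts (275 CPM, next 35.6 CPM). Among healthy mice, H3 was lowest for *Slpi* over all lung cells (386 CPM, next 594 CPM).

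Cells without a cell type label entered no comparison of labelled cells, and their levels pooled over mice were higher in CIA for some members. In joint, *Hp* had 457 CPM in CIA (42 UMIs) and 212 CPM in healthy mice (3 UMIs), and granulocyte markers in these cells were at 97407 to 278013 CPM in S1, S3, S5 and S8, 2634 CPM in S6 and 4197 to 40174 CPM in healthy mice. In spleen, *Hp* had 327 CPM (47 UMIs) and 31.8 CPM (3 UMIs), and *Slpi* had 97.5 CPM (14 UMIs) and 31.8 CPM (3 UMIs), with granulocyte markers at 107090 to 149414 CPM in the severe, 1761 to 9533 CPM in the mild and 531 to 37744 CPM in the healthy mice. The part of granulocyte RNA in these values was not tested. In skin, *Saa3* had 378 CPM (27 UMIs) and 0 UMIs, and *Slpi* had 154 CPM (11 UMIs) and 68.8 CPM (4 UMIs). Mouse S2 held 25 of these *Saa3* and 10 of these *Slpi* UMIs, and without it the CIA levels were 34.0 and 17.0 CPM. In muscle, *Slpi* had 237 CPM (29 UMIs) and 130.1 CPM (7 UMIs), and without S6, which held 24 of the 29 UMIs, the CIA level was 83.1 CPM. These pooled values have no test over mice.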

How the results depend on the processing

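Of the members in pairs of organ and cell type, 5 were called, and the count was 1 with DESeq2 (*Hp* in spleen monocytes), 1 in the experiment CIA alone (*Saa3* in Basal III cells, lower in CIA and not among the 5), 3 with experiment as a term, 1 with the replicate block (*Hp* in spleen monocytes) and 1 to 6 without 1 mouse. With experiment as a term, *Hp* in spleen monocytes and *Saa3* in skin fibroblasts kept their calls, *Saa3* and *Slpi* in spleen monocytes and *Slpi* in skin fibroblasts lost theirs, and *Saa3* in Basal III cells gained one. Of the organ sums 2 were called, and the count was 1 with DESeq2 (*Hp* of spleen), 1 in the experiment CIA alone (*Saa3* of skin, lower in CIA), 1 with experiment as a term (*Saa3* of spleen), 1 with the replicate block (*Hp* of spleen), 1 with unlabelled cells added, 4 without a filter on low counts and 1 to 4 without 1 mouse. DESeq2 gave an adjusted p for 2 of the 34 pair tests and 6 of the 22 sum tests, and the fits of the experiment CIA alone and of the block covered fewer tests by construction. For severe against mild mice the count was 4, 2 with DESeq2 and 0 to 4 without 1 mouse. Of the 3 members that differed between healthy organs, the count was 0 to 2 without 1 mouse, and *Slpi* was lost with a pseudocount of 1 CPM. List genes gave 3 calls, 11 without the filter and 0 to 4 without 1 mouse. For shares of cells the count was 0 under each alternative run. The block used mouse numbers that healthy and CIA mice share only as a number, since they are different animals, so no pairing is read from it, and the lung sum could not be estimated with it. The direction turned for *Slpi* in muscle macrophages without CIA mouse S6 (log2 difference from -0.88 to 2.28 without 1 mouse), for *Saa3* in Basal III cells without healthy mouse H7 (-4.29 to 0.0099) and for *Saa3* in skin fibroblasts in the experiment CIA alone (-1.76). For these changes beyond left-out samples and genes tested, the cause was not tested. The *Saa3* level in CIA joint fibroblasts was 982 to 2756 CPM above that of healthy mice without 1 mouse and 1525 CPM with mice of at least 5 cells. Depth limits *Saa1* and *Saa2*, with 74 and 35 UMIs in all.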
